A study of Mus musculus with 15 samples.

Results

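The transcripts described here are 200 probes that were bright in control liver and about as bright in the reference RNA on the same arrays. They were taken from 42006 probes in 2 steps. First, the mean log2 ratio of liver (Cy3) over reference (Cy5), from the scanner's processed signals, had to lie within 1 of 0 in control newborns and in control adults, which 32504 probes met. Of these the 200 with the highest mean log2 Cy3 signal over the 6 control arrays were kept. The rule was applied to measured values of the control arrays, so that brightness and ratio in control mice describe the choice and are not results.

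Liver RNA came from 15 mice, 3 in each of 5 groups, each mouse from a separate litter by the sample descriptions and the methods. The group 10 week tap/tap had only arsenic-free water and was examined at 10 weeks. The group 10 week as/tap came from dams whose drinking water held sodium arsenite at 85 mg/L, or 49 ppm arsenic, between gestational day 8 and birth. It had arsenic-free water afterwards and was examined at 10 weeks. The group 10 week tap/as drank the same arsenic concentration itself from postnatal day 21 until 10 weeks. The groups newborn tap and newborn as were examined on the day of birth, without and with the arsenic given to the dam. The labels name the strain C57/BL6J, and the methods describe apolipoprotein E-knockout mice, which lack the protein that clears lipoprotein remnants, in every group, controls included. The reference was a pool of RNA from 11 mouse cell lines, labelled with Cy5 on every array, so that a dye effect cannot be separated from a difference between liver and reference. The arrays of the 2 ages were read out on different days, and an effect of the day cannot be told apart from one of age. Both exposed adult groups were compared with the same 3 control arrays.

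A 2-colour array reports how much of a labelled RNA binds to each probe, in 2 RNAs that compete on the same spot. Transcripts that are plentiful both in a tissue and in a pool of unrelated cell lines are commonly those of basic cell functions such as protein synthesis, energy metabolism and the cytoskeleton, and such transcripts are often taken as a steady background. Arsenite binds to thiol groups of proteins and provokes a stress response in liver cells. The files give each probe only an identifier and its 60-base sequence, so that no member could be given a gene name here, and neither the tissue nor the knockout could be checked against marker genes. In bulk liver RNA, fewer cells of one type and less RNA per cell cannot be told apart.

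The sequences that carry the results are shown first. The next 4 probes belong to a family of 13 members with shared sequence, and the capitals mark the 10-base run TTCAGTTTTC, which 9 of the 13 contain.
Z00063753-1: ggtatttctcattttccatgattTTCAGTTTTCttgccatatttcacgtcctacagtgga
Z00063686-1: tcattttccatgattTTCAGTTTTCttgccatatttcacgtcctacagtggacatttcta
Z00063755-1: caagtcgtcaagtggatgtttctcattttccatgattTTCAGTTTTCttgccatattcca
Z00063751-1: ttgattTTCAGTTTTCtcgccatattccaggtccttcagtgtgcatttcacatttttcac

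The probe Z00003122-1 was the only member with an adjusted p below 0.05 for an exposure when all 15 arrays were fitted by the procedure used throughout, and Z00030631-1, the brightest member, overlaps it in sequence. The capitals mark a stretch of 32 bases in which 27 match.
Z00003122-1: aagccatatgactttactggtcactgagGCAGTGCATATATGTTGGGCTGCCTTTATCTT
Z00030631-1: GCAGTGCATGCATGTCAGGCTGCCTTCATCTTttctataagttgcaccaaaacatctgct

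The following 6 probes are examples of the members named below, 3 that kept a p below 0.01 whichever array was left out (Z00019690-1 and Z00026517-1 in the postweaning and Z00005005-1 in the newborn comparison) and 3 that did not, and are printed without capitals.
Z00001979-1: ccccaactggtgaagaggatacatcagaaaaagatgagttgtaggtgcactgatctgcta
Z00019690-1: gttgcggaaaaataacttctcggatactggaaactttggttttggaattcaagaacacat
Z00026517-1: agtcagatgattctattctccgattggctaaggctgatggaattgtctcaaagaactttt
Z00018860-1: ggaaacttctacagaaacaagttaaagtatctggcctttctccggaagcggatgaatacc
Z00005005-1: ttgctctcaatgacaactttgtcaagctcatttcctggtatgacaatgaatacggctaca
Z00039395-1: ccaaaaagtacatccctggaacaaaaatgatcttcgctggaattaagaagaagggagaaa

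By signal, the members spanned a mean Cy3 of 41943 to 205355 scanner units in the control arrays (median 78344). All 200 were well above background in both dyes on all 15 arrays. The brightest was Z00030631-1 with a mean log2 Cy3 of 17.65, followed by Z00033642-1 at 17.59, Z00036126-1 at 17.40, Z00032355-1 at 17.37 and Z00025768-1 at 17.31. Ranks 6 to 10 were Z00010242-1, Z00035045-1, Z00060921-1, Z00060331-1 and Z00031123-1, at 17.29, 17.29, 17.19, 17.15 and 17.14. At the lower end, Z00070538-1 and Z00048626-1 lay just inside the limit with 15.36 each (15.3581 and 15.3562), and Z00020131-1 and Z00035095-1 lay just outside with 15.3529 and 15.3499. By ratio, Z00063764-1 (-0.9999 in control adults) and Z00027064-1 (-0.995) were just inside, and Z00030508-1 (-1.003 in control adults) and Z00060733-1 (1.01 in control newborns) just outside. Of the 690 probes at least as bright as the dimmest member, 334 were left out for a ratio of 1 or more and 171 for a ratio of -1 or less at either age, and a probe could meet both.

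The brightness of the reference limited what these probes could show. In the reference channel 45 members were saturated on every array, 33 on some arrays and 122 on none, with 47 to 76 members saturated per array. Saturation was most frequent in the control adults, with 64 to 76 members per array, against 60 to 64 in 10 week as/tap and 58 to 69 in 10 week tap/as. In the liver channel 2 members were saturated on any array. For a member saturated in the reference the Cy5 value is a lower bound and the ratio is an upper bound. Before normalization, differences of its ratio between saturated arrays follow the liver channel almost alone. The normalized ratio used for the calls below did not follow it so closely. For Z00003122-1, saturated in the reference on every array, the postweaning difference was 0.50 in the normalized ratio. It was 0.35 in the liver channel alone and -1.64e-05 in the reference channel alone. The source of the larger difference in the ratio was not tested.

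Levels in each channel were compared first as background-subtracted signals, given as the members' median log2 signal above the median of all probes on the same array. In the liver channel the 3 control adults were at 5.83, 5.68 and 5.91, the 10 week as/tap arrays at 6.07, 6.15 and 6.10, and the 10 week tap/as arrays at 6.14, 6.05 and 6.22. Each exposed adult array was above each control adult array, by 0.30 on average after prenatal and 0.33 after postweaning exposure. In the reference channel, which held the same RNA throughout, the medians were 6.57, 6.47 and 6.66 in the controls, 6.62, 6.74 and 6.71 in 10 week as/tap and 6.63, 6.55 and 6.82 in 10 week tap/as. These groups overlapped, and the reference medians were still higher by 0.13 and 0.10 in the exposed groups on average. Without the 13 probes of the repeat family these differences were 0.06 and 0.14. Newborn liver medians were 6.57, 6.30 and 6.27 in newborn tap and 6.12, 6.37 and 6.61 in newborn as, with overlap.

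The liver-channel rise was not particular to transcripts shared with the reference. The same quantity was higher in the exposed adult arrays, without overlap, in the 200 brightest probes enriched in liver (ratio of 1 or more at both ages), by 0.32 and 0.44, and in the 200 brightest enriched in the reference (ratio of -1 or less at both ages), by 0.26 and 0.28. As the median of all probes was the zero point, a lower median signal of the whole array gives the same picture as brighter members. Without that scaling the background-subtracted Cy3 medians of the members overlapped with the controls (13.03 to 13.37) in 10 week as/tap (13.18 to 13.21) and in 10 week tap/as (13.32 to 13.52). The mean was lower in 10 week as/tap, 13.20 against 13.23, so that the prenatal difference changed sign without the scaling, and it was higher by 0.21 in 10 week tap/as. The median Cy3 of all probes was 7.42 in the controls, 7.09 in 10 week as/tap and 7.30 in 10 week tap/as. The scanner's processed Cy3 medians, which carry a dye normalization of each array by the scanner software, did not overlap and were higher by 0.20 and 0.22. Without the repeat family they were higher by 0.20 and 0.25, and both exposed groups overlapped with the controls.

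**Figure D1:**
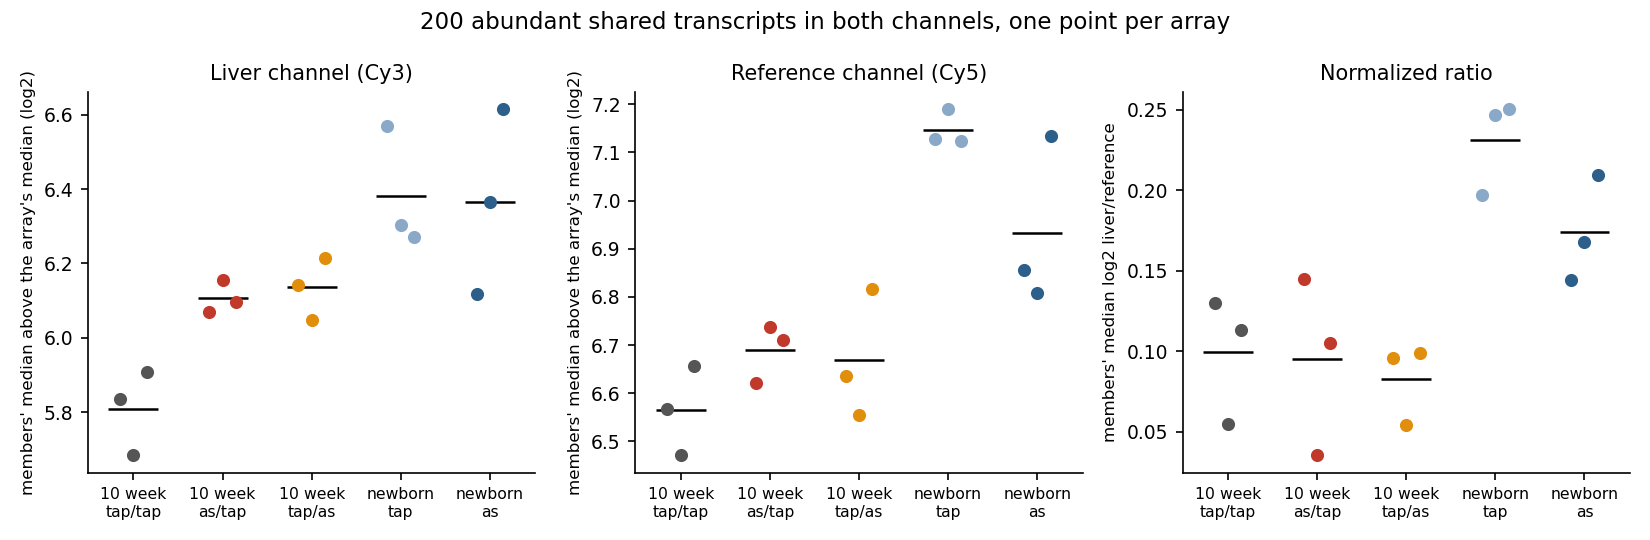
Members' median per array in 5 groups of 3 arrays, with the group mean as a line. The left and middle panels give background-subtracted Cy3 and Cy5 above the array's median of all probes (log2), and the right panel the normalized log2 ratio. The exposed adult arrays lie above the control adult arrays in the left panel (6.05 to 6.22 against 5.68 to 5.91) and overlap with them in the other panels.

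In the ratio of both channels the adult groups overlapped. After quantile normalization of each channel and removal of an intensity trend within each array, the members' median log2 ratio was 0.13, 0.055 and 0.11 in the control adults, 0.14, 0.035 and 0.11 in 10 week as/tap and 0.096, 0.054 and 0.099 in 10 week tap/as. The mean of these array medians was lower in the exposed groups by a difference of -0.0045 and -0.02, and without the repeat family the differences were -0.007 and 0.0087, so that the sign of the postweaning difference rested on the family. The newborn arrays were at 0.20, 0.25 and 0.25 in newborn tap and 0.14, 0.17 and 0.21 in newborn as, and the lowest of them was level with the highest adult array. In the scanner's own processed ratio the medians were -0.11, -0.25 and -0.20 in control adults, -0.0045, -0.18 and -0.17 in 10 week as/tap and -0.090, -0.19 and -0.10 in 10 week tap/as, again with overlap. Same-numbered arrays of the controls and 10 week as/tap deviated together, and within each of these 3 pairs the processed median was higher in 10 week as/tap, while the normalized median was higher in 1 pair and lower in 2.

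Prenatal arsenic in 10 week liver gave a median of the 200 differences of 0.05 on the log2 scale (mean 0.02), the other sign from the array medians above, against 0.0055 for all probes, and 129 of the 200 were higher. At an unadjusted p of 0.01 in limma, 10 members rose and 6 fell. Among all probes 2.84% rose and 0.707% fell (3.54% in all), against 8% of the members. Bright probes as a whole were called more often than all probes. Among those with a mean log2 Cy3 above 13 and 35% to 45% G and C, 237 of 1775 rose and 21 fell. In this range, the largest, 5 of 92 members outside the repeat family rose and 2 fell. The median difference was 0.09 over all probes with a mean log2 Cy3 of 15 to 16 and 0.07 above 16. No member passed an adjusted p of 0.05 (smallest 0.181). An unadjusted p below 0.05 was met by 41, with no count over all probes at that threshold, so that it is no result about the members. The arrays of both groups did not overlap for 39 members that were higher and 16 that were lower among those measured on all 6 arrays, against 19.7% of all probes in either direction, 13.7% higher and 6.03% lower. Without 10 week tap/tap replicate 1, 5 members were higher and 12 lower, and over all probes 1841 were higher and 1831 lower, against 1192 and 297 with it. Without 10 week tap/tap replicate 2, 6 members were higher and 9 lower, and over all probes 520 were higher and 307 lower. Without 10 week tap/tap replicate 3, 11 members were higher and 1 lower, and the median was 0.09. The count of 16 fell to 4 without 10 week as/tap replicate 2 and to 9 without 10 week as/tap replicate 3. These counts stand without the share over all probes and are no result about the members. The balance of directions moved with the processing. Without the quantile step 4 members rose and 9 fell (836 and 330 over all probes), and without background subtraction 12 and 11 (988 and 402). Among 122 members never saturated in the reference 4 rose and 6 fell. The scanner's processed ratio gave 11 and 0 (743 and 310).

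The largest rise was in Z00001979-1. Its log2 ratio was 1.03, 1.57 and 0.89 in 10 week as/tap and 0.48, 0.050 and 0.0011 in the controls. The exposed arrays were all above the control arrays, a difference of 0.99 (SE 0.266, unadjusted p 0.00258, adjusted p 0.219). In 10 week tap/as the same probe was at 0.49, -0.26 and -0.44, and in newborns it was at 0.16, -0.18 and -0.18 with arsenic and 0.92, 0.041 and 0.36 without. The rise was therefore seen in 1 of the 3 exposed groups, and its p exceeded 0.01 without 10 week tap/tap replicate 2, tap/tap replicate 3 or as/tap replicate 2.

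Z00018651-1 rose by 0.34 (SE 0.0768, p 0.00063, adjusted p 0.181), from -0.59, -0.49 and -0.53 to -0.30, -0.12 and -0.16. Z00058822-1 rose by 0.24 (SE 0.0639, p 0.00216, adjusted p 0.218), from -0.65, -0.56 and -0.53 to -0.32, -0.37 and -0.33. Neither pair of groups overlapped, both probes were saturated in the reference on all 15 arrays, and the liver channel alone differed by 0.28 and 0.19. The p of Z00058822-1 exceeded 0.01 without 10 week tap/tap replicate 1. The members Z00030343-1 and Z00040447-1, which share sequence with Z00058822-1, differed by 0.09 and 0.14 and were not called (p 0.387 and 0.0507).

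The members that fell included some of the highest GC content. Z00057379-1 (71.7% G and C) fell by 0.39 (SE 0.111, p 0.00383, adjusted p 0.23), from 0.47, 0.45 and 0.57 to 0.21, -0.015 and 0.13. Z00056933-1 (73.3%) fell by 0.33 (SE 0.103, p 0.00626, adjusted p 0.252), from 0.33, 0.12 and 0.34 to 0.0055, -0.18 and -0.042. Z00073410-1 (45%) fell by 0.48 (SE 0.136, p 0.00384, adjusted p 0.23), from 0.63, 0.68 and 0.96 to 0.27 and 0.28, and its spot on 10 week as/tap replicate 2 was an outlier and was left out of the fit. The groups did not overlap for any of the 3. Each lost its call on leaving out single arrays, Z00057379-1 without 10 week tap/tap replicate 3 or as/tap replicate 2, Z00073410-1 without tap/tap replicate 3 or as/tap replicates 1 or 3, and Z00056933-1 without tap/tap replicates 1 or 3 or as/tap replicates 2 or 3.

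Postweaning arsenic in 10 week liver gave the members a median difference of 0.07 (mean 0.01) against 0.0044 for all probes, and 127 of 200 were higher. At an unadjusted p of 0.01, 12 members rose and 2 fell, and among all probes 3.87% rose and 0.669% fell (4.54% in all), against 7% of the members. Of the 1775 probes with a mean log2 Cy3 above 13 and 35% to 45% G and C, 288 rose and 14 fell. Of 92 members in that range outside the repeat family, 10 rose and 2 fell. The median difference was 0.10 over all probes with a mean log2 Cy3 of 15 to 16 and 0.08 above 16. At an adjusted p of 0.05, 1 member was called, against 0.917% of all probes. The groups did not overlap for 63 members that were higher and 21 that were lower, against 17.7% of all probes, 12.8% higher and 4.93% lower. The differences were small, as the median absolute difference was 0.17 over the members and 0.08 over all probes. Without 10 week tap/tap replicate 1, 3 members were higher and 3 lower, and over all probes 1769 were higher and 2373 lower, against 1626 and 281 with it. The count of 14 moved to 8 without tap/tap replicate 2 or tap/as replicate 1, to 5 without tap/as replicate 3 and to 22 without newborn as replicate 1. The share over all probes is not given for these fits, so that the counts are no result about the members. Without background subtraction 7 members were higher and 11 lower, while over all probes 1292 were higher and 444 lower.

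The member with the adjusted call was Z00003122-1. Its log2 ratio was 0.14, 0.29 and 0.45 in 10 week tap/as, -0.11, -0.33 and -0.17 in the control adults and -0.28, -0.20 and -0.23 in 10 week as/tap. The postweaning arrays stood above every other adult array, and above all newborn arrays too (-0.46 to -0.14). The difference from control was 0.50 (SE 0.0999, p 0.000233, adjusted p 0.0394). The liver channel alone differed by 0.35 and did not pass the adjustment in limma (p 0.00464, adjusted p 0.084). Saturation of the reference on all 15 arrays left no value when saturated spots were set missing. Of 15 fits that each left out 1 array, 7 kept the adjusted p below 0.05 (range 0.0259 to 0.205), namely the 6 without a newborn array and the 1 without tap/tap replicate 1, while the 8 fits without another adult array gave 0.0550 to 0.205. Under other processing of the ratio the adjusted p ranged from 0.0036 with array weights to 0.268 with ratios quantile normalized after loess. The brightest member Z00030631-1, which overlaps it in sequence, was at 1.14, 1.27 and 1.52 in 10 week tap/as and 1.07, 0.84 and 0.96 in the controls, a difference of 0.36 (SE 0.123, p 0.0128, adjusted p 0.248), with groups that did not overlap.

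Z00019690-1 rose by 0.37 (SE 0.0866, p 0.000899, adjusted p 0.0693), from -0.49, -0.35 and -0.17 to 0.10, -0.058 and 0.053. It was also called after prenatal exposure, where it was at 0.067, -0.12 and -0.060, a difference of 0.30 (p 0.00419, adjusted p 0.236). Of the 16 and 14 members called, 2 were in both lists, Z00019690-1 and Z00030299-1, and the comparisons share their control arrays. Z00026517-1 rose by 0.45 (SE 0.114, p 0.00158, adjusted p 0.0909), from -0.41, -0.32 and -0.30 to 0.067, -0.090 and 0.34. Both probes were saturated in the reference on all 15 arrays, and their liver channels alone differed by 0.22 and 0.30.

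In the other direction Z00056980-1 fell by 0.53 (SE 0.157, p 0.00466, adjusted p 0.154), from 0.58, 0.097 and -0.037 to -0.28, -0.29 and -0.39. Z00061002-1 fell by 0.60 (SE 0.181, p 0.00523, adjusted p 0.164), from 0.42, -0.22 and 0.24 to -0.62, -0.37 and -0.38. In both, tap/tap replicate 1 was the highest control and the p exceeded 0.01 without it. The same happened for Z00056980-1 without any of the 3 tap/as arrays, and for Z00061002-1 without tap/tap replicate 3 or tap/as replicate 1. The third lowest p belonged to Z00062360-1, which did not pass (difference -0.47, SE 0.161, p 0.0119, adjusted p 0.24), with values of 0.083, -0.078 and 0.047 in the controls and -0.41, -0.52 and -0.43 in 10 week tap/as.

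Prenatal arsenic in newborn liver gave the members a median difference of the other sign, -0.04 (mean -0.04) against 0.0026 for all probes, and 77 of 200 were higher. The medians of all probes with a mean log2 Cy3 of 15 to 16 and above 16 were -0.04 and -0.05. At an unadjusted p of 0.01, 2 rose and 8 fell, and among all probes 1.99% rose and 1.31% fell (3.30% in all), against 5% of the members. No member passed the adjusted p (smallest 0.14), and 35 had an unadjusted p below 0.05, again with no count over all probes. The groups did not overlap for 6 higher and 14 lower members, against 12% of all probes, 6.55% higher and 5.42% lower. The count of 10 rose to 38 without newborn as replicate 1, of which 15 were higher and 23 lower and 17 passed the adjusted p, with 1801 of all probes, and fell to 5 without newborn as replicate 2 or newborn tap replicate 2. There were as many rises as falls on 2 other scales, as the scanner's processed ratio gave 6 higher and 6 lower with a median of -0.022 (3.20% of all probes called) and the liver channel alone 4 higher and 4 lower with a median of -0.0042 (2.27%). The reference channel alone gave 0 at a p of 0.01 in limma (1.59%), with 2 members at an unadjusted p below 0.05 and no count over all probes at that threshold.

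Z00047627-1 fell the most among those named, from 1.07, 0.82 and 0.62 in newborn tap to 0.29, -0.021 and 0.16 in newborn as, a difference of -0.69 (SE 0.155, p 0.000609, adjusted p 0.147). In adults it was between -1.20 and -0.53 in all 3 groups. Z00005005-1 fell by 0.42 (SE 0.101, p 0.000988, adjusted p 0.169), from 0.47, 0.26 and 0.035 to -0.19, -0.26 and -0.052. Z00047541-1 fell by 0.34 (SE 0.0742, p 0.000555, adjusted p 0.14), from -0.58, -0.30 and -0.41 to -0.67, -0.87 and -0.75. None of these overlapped between the newborn groups, and all 3 kept a p below 0.01 whichever array was left out.

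Rises in newborns depended more on single arrays. Z00018860-1 rose by 0.27 (SE 0.0831, p 0.00632, adjusted p 0.275), from 0.65, 0.63 and 0.79 to 0.90, 0.96 and 1.01, without overlap. It was also called after postweaning exposure, with -0.18, -0.26 and -0.27 against -0.70, -0.48 and -0.43 in control adults (difference 0.30, p 0.00336, adjusted p 0.132). Its newborn p exceeded 0.01 without newborn as replicates 2 or 3 or newborn tap replicates 1 or 2. Z00039395-1 rose by 0.45 (SE 0.143, p 0.0073, adjusted p 0.282), from -0.81, -0.81 and -0.80 to -0.77, -0.29 and -0.0013, so that 1 exposed array was near the controls, and the call was lost in 8 of the 15 fits that left out an array, those without newborn as replicates 2 or 3, any newborn tap array, tap/tap replicate 2 or tap/as replicates 1 or 2. Z00030890-1 did not pass (0.32, SE 0.109, p 0.0124, adjusted p 0.314), with 0.29, 0.68 and 0.90 against 0.34, 0.29 and 0.30.

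**Figure D2:**
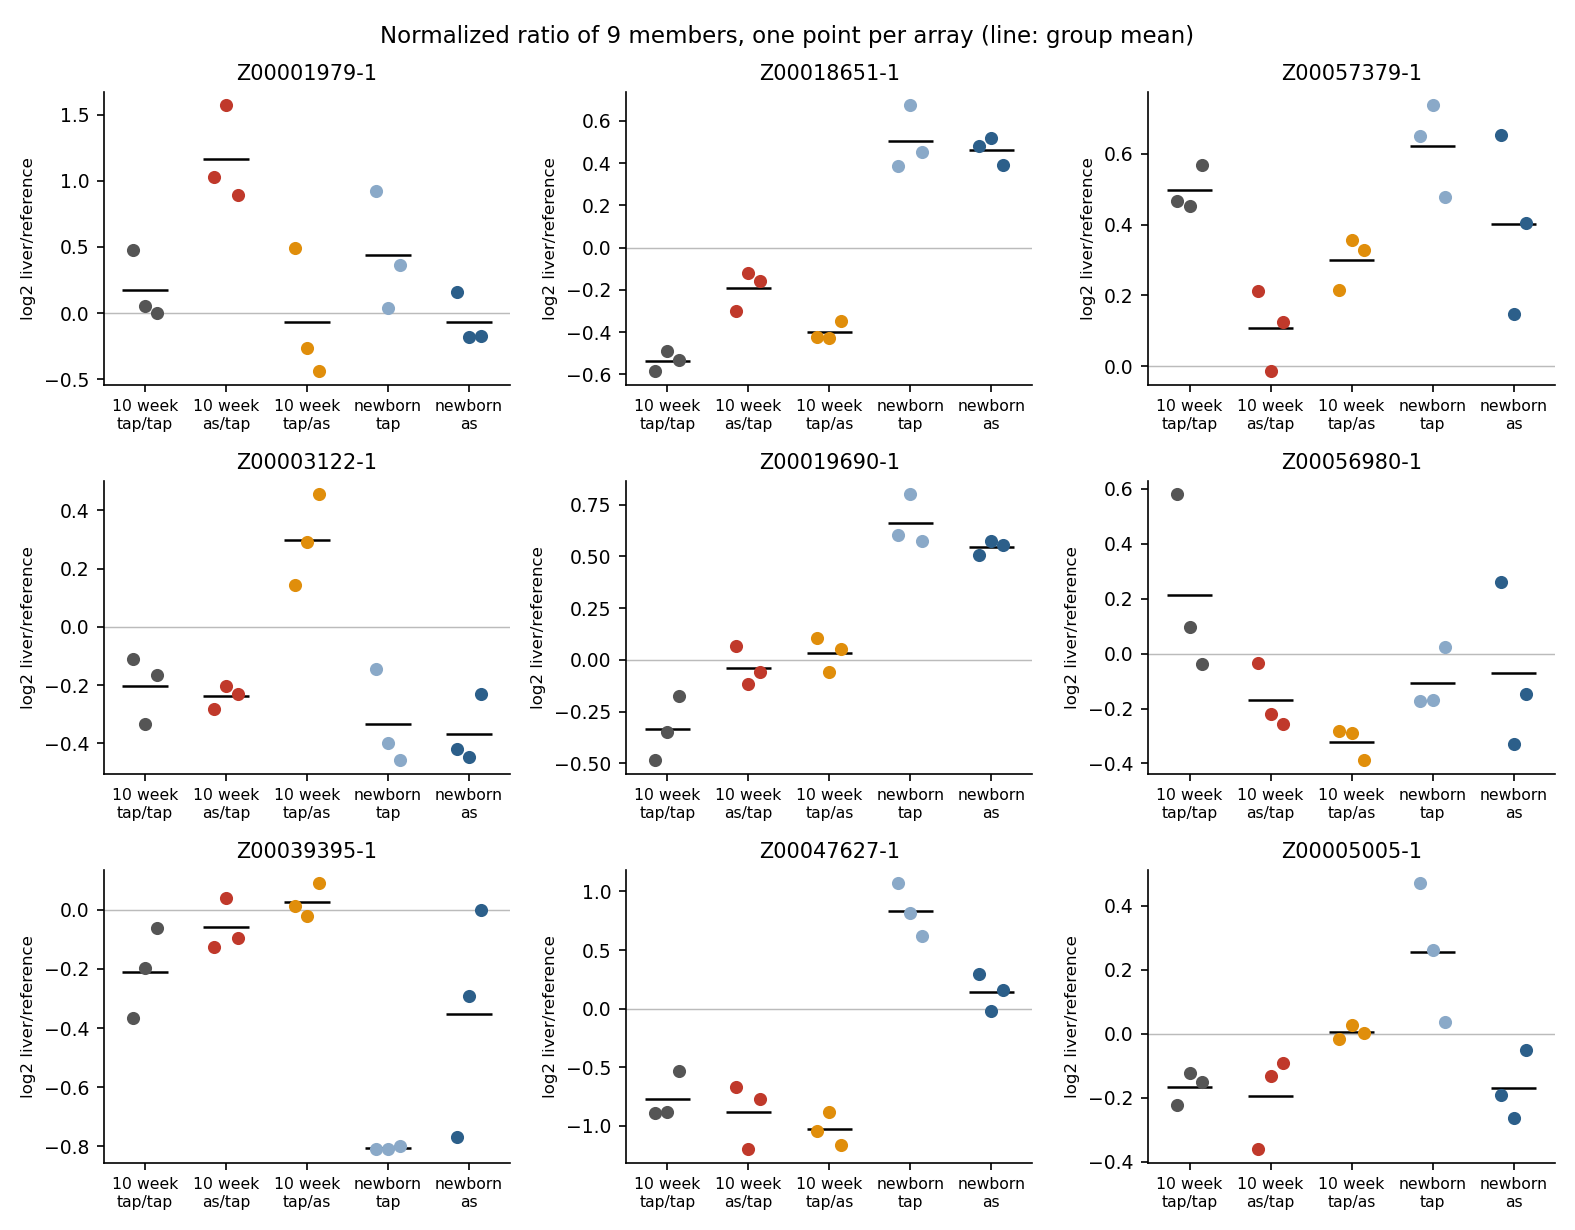
Normalized log2 liver over reference of 9 members on each of the 15 arrays, with the group mean as a line. Z00001979-1 stands out in 10 week as/tap (0.89 to 1.57), Z00003122-1 in 10 week tap/as (0.14 to 0.45) and Z00047627-1 in the controls of the newborn groups (0.62 to 1.07).

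The 2 exposed adult groups were also compared directly, on arrays that took no part in choosing the members. At a p of 0.01, 7 members differed, 2 higher and 5 lower in 10 week as/tap, against 1.72% of all probes. None passed the adjustment (smallest adjusted p 0.188 in limma). An unadjusted p below 0.05 was met by 23 members, with no count over all probes at that threshold. The balance of directions was not stable. It was 9 higher and 4 lower without background subtraction (417 and 455 over all probes) and 6 and 6 in the liver channel alone (225 and 486). Without tap/as replicate 1 it was 5 and 4, 1 of them past the adjusted p, here without the share over all probes. Z00001979-1 was higher in 10 week as/tap by 1.23 (SE 0.266, p 0.000454, adjusted p 0.269) and Z00003122-1 lower by 0.53 (SE 0.0999, p 0.000125, adjusted p 0.188). Z00010242-1, the sixth brightest member, was lower by 0.65 (SE 0.148, p 0.000751, adjusted p 0.282), with 0.49, 0.67 and 0.76 against 1.19, 1.43 and 1.23. The effect of prenatal arsenic differed between the ages at a p of 0.01 for 10 members, all more positive in adults, against 3.17% of all probes. None passed the adjustment (smallest 0.202), and 30 members had an unadjusted p below 0.05, again with no count over all probes. The direction turned in the liver channel alone, with 1 more positive and 3 less positive (796 and 1300 over all probes). The reference channel alone gave 0 and 2 (611 and 1447), and the scanner's processed ratio 9 and 0 (683 and 405). The count of 10 was 5 without tap/tap replicate 2, 6 without as/tap replicate 3 or newborn tap replicate 2, 21 without newborn tap replicate 1 and 24 without newborn as replicate 1. In this last fit 16 were more positive and 8 less positive in adults, and 6 passed the adjustment. The share over all probes is not given for the fits without an array, so that their counts are no result about the members.

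How the members compared with other bright probes depended on the scale. On the normalized ratio, the 200 brightest reference-enriched probes had median differences of 0.26 after prenatal and 0.31 after postweaning exposure, with 56 higher and 0 lower, and 83 higher and 1 lower, at the same threshold. The 200 brightest liver-enriched probes had medians of -0.02 and -0.02, with 0 higher and 5 lower, and 4 higher and 4 lower. The members had 0.05 and 0.07. On the scanner's processed ratio, the scale of the rule, the same medians of the differences were 0.14 and 0.06 in the liver-enriched probes, 0.20 and 0.18 in the reference-enriched probes and 0.13 and 0.13 in the members. On the normalized ratio, across all probes with a mean log2 Cy3 above 13, the median prenatal difference was 0.23 for control ratios below -2, 0.28 from -2 to -1, 0.24 from -1 to -0.5, 0.13 from -0.5 to 0, -0.02 from 0 to 0.5, 0.05 from 0.5 to 1, 0.10 from 1 to 2 and 0.0036 above 2. The postweaning medians over the same ranges were 0.40, 0.31, 0.23, 0.13, 0.02, 0.05, 0.09 and -0.03, and the newborn medians lay between -0.06 and 0.01. The control arrays entered both the ratio and the difference, so that a control array that is low by chance moves both. No test of these medians was made.

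**Figure D3:**
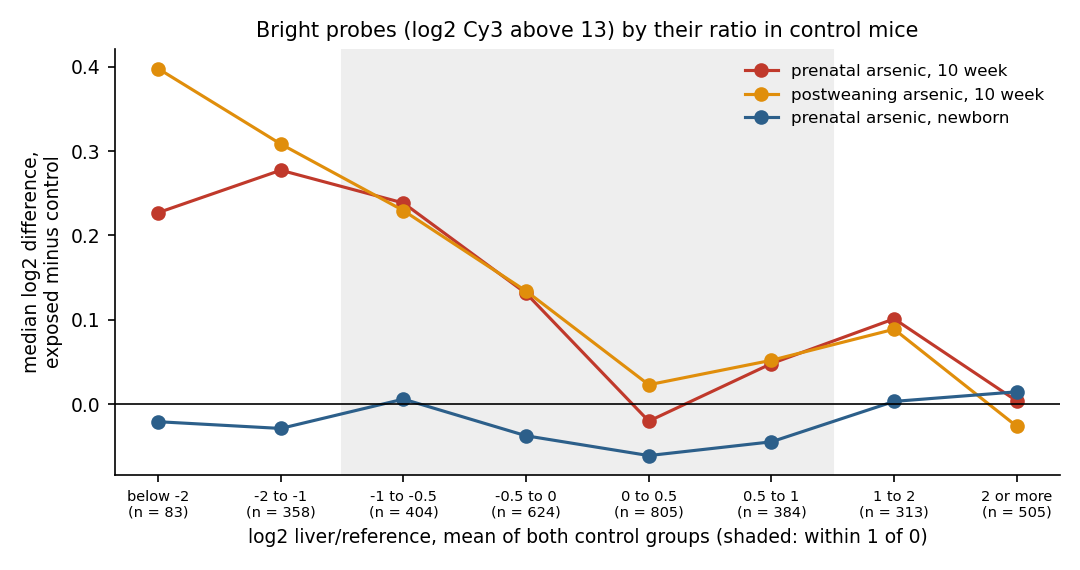
Median log2 difference, exposed minus control, of the 3476 probes with a mean log2 Cy3 above 13, by their mean log2 ratio in both control groups (n below each range). At ratios below -2 the adult medians are 0.23 (prenatal) and 0.40 (postweaning), at 0 to 0.5, inside the shaded range from which the members were drawn, they are -0.02 and 0.02, and at 1 to 2 they are higher again, 0.10 and 0.09. The newborn curve stays near 0.

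When the rule was applied to newborn controls only, so that no adult array chose the list, the adult medians were 0.13 and 0.13, with 19 higher and 1 lower after prenatal and 42 higher and 0 lower after postweaning exposure. Of that list 95 were members and 98 had a ratio of -1 or less in control adults. The list chosen on adult controls only shared 137 with the members and gave 3 higher and 5 lower in newborns, with a median of -0.03. The scanner's processed ratio, centred on each array's median, gave the members medians of 0.13 and 0.13, with 11 higher and 0 lower after prenatal exposure (background 2.51%) and 14 higher and 0 lower after postweaning exposure (3.35%). The liver channel alone, quantile normalized, gave medians of -0.00071 and -0.04, with 2 higher and 11 lower (4.30%) and 4 higher and 11 lower (8.26%), and the reference channel alone 0 higher and 1 lower (3.76%) and 2 higher and 4 lower (9.26%). The direction of the members' median shift therefore depended on the scale.

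Base composition moved with the differences in adults and in newborns. Among the 187 members outside the repeat family, the median prenatal difference was 0.11 for 23 probes with at most 35% G and C, 0.10 for 92 probes up to 45%, 0.01 for 55 probes up to 55% and -0.18 for 17 probes above 55%. The postweaning medians were 0.17, 0.15, -0.0026 and -0.12, and the newborn medians 0.03, -0.02, -0.09 and -0.14. Of the 6 members that fell after prenatal exposure 3 were above 55%, and no member above 55% was called higher in any of the 3 exposure comparisons. Over all probes, 44, 86 and 46 of the 3374 above 55% were called higher in the prenatal adult, postweaning and newborn comparisons, so that 0 of 17 is no result about the members, and they held 80 of the 297 falls after prenatal exposure in adults. All probes with a log2 Cy3 above 13 showed the same order, from 0.22 to -0.08 after prenatal and from 0.19 to -0.02 after postweaning exposure. Their newborn medians fell from 0.0039 to -0.09.

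On single arrays, the median ratio of members above 55% minus that of members at or below 35% was 0.22, 0.32 and 0.43 in the control adults, 0.06, -0.25 and -0.02 in 10 week as/tap, and 0.07, 0.21 and -0.10 in 10 week tap/as. Each exposed adult array was below the control adult arrays, the nearest of them, tap/as replicate 2, by a narrow margin. In newborns the values were 0.12, 0.02 and 0.0091 without and -0.07, -0.18 and -0.10 with arsenic. The ranges of base composition were chosen after the values had been seen, and the part of base composition in the differences was not tested.

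**Figure D4:**
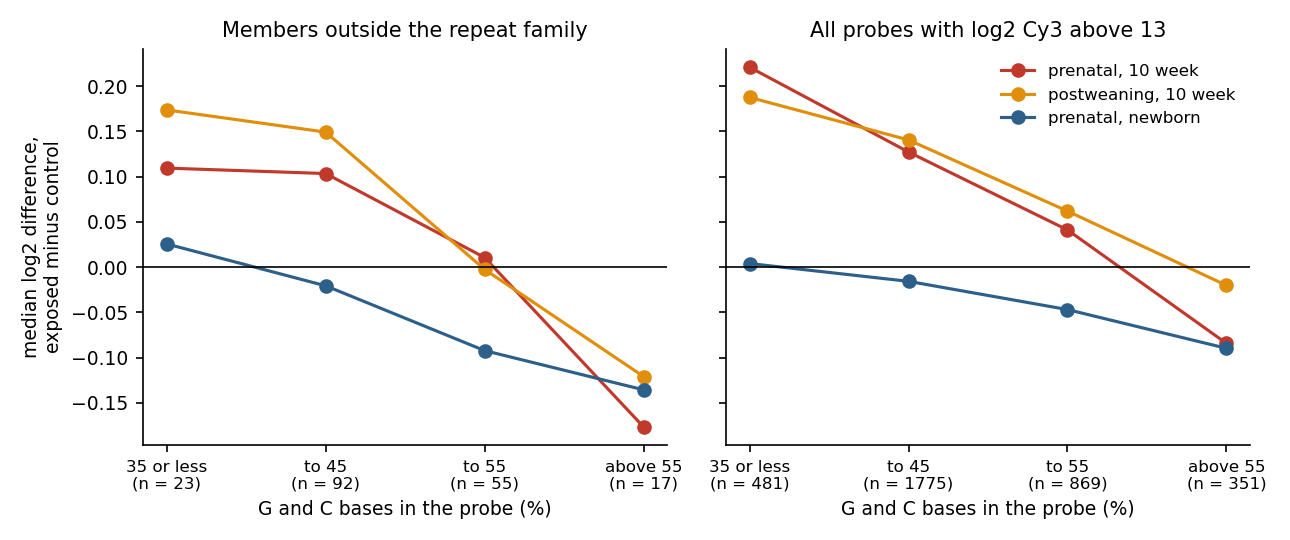
Median log2 difference, exposed minus control, by the percentage of G and C in the 60-base probe, for members outside the repeat family (left) and for all probes with log2 Cy3 above 13 (right). Medians fall with G and C content in adults and newborns. In members the adult medians fall from 0.11 to -0.18 after prenatal and from 0.17 to -0.12 after postweaning exposure. The newborn medians fall from 0.03 to -0.14.

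The members held 17 groups of probes that share a run of at least 16 bases, with 50 members in all, and 150 members shared no such run. Of these groups 12 were pairs, 3 were triples and 1 had 4 members. Such probes share sequence, though some differ at bases within the overlap, and are not independent. The pair Z00060844-1 and Z00060928-1, for example, differed by -0.80 and -0.80 after prenatal and by -0.51 and -0.53 after postweaning exposure, and neither passed the test.

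The largest group was the family of 13 shown above. Read through their overlaps, the 13 probes close on themselves after 116 bases, as a tandem repeat does. Tandem repeats make up much of the constitutive heterochromatin of a genome. Their G and C content was 31.7% to 38.3%, against a median of 43.3% for all 200 members and for all probes. The family was noticed in the values and was chosen after they had been seen, so that no test was made of it.

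The family varied between arrays of a group more than other members. Its median log2 ratio was 0.28, -0.61 and -0.87 in the control adults, 0.76, -0.87 and -1.07 in 10 week as/tap, -1.48, -0.69 and -0.97 in 10 week tap/as, -0.21, -0.22 and -0.24 in newborn tap and -0.47, 0.36 and -0.64 in newborn as. The ratio was high on single arrays, as/tap replicate 1, newborn as replicate 2 and tap/tap replicate 1, and their groups overlapped with the others. On newborn as replicate 2 the processed log2 Cy3 median of the family, 16.83, was below those of newborn tap replicates 1 and 2 (17.08 and 16.85), and the Cy5 median of 16.35 was the lowest of the 15 arrays. The median within-group SD was 0.61 for the family, 0.14 for the other members and 0.11 for all probes, and the family, 6.5% of the members, held 44.5% of the members' within-group sum of squares. Processed log2 Cy3 medians of the family ran from 15.42 to 17.38 over the arrays. Its reference spots were saturated on 3 to 13 of the 15 arrays, and the background-subtracted Cy5 median was at 15.99 in all 3 adult groups. In newborns the processed Cy5 medians ran from 16.35 to 17.15, so that there both channels entered the spread of the ratio. The 9 other probes on the array that share 16 bases with the family, 3 of them on the opposite strand, were outside the ratio limit, with control adult ratios of -1.43 to -1.03. Without the family the members' medians were 0.06, 0.10 and -0.05 in the 3 exposure comparisons, and no call changed, as none of the 13 was called.

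One member was on the array a second time under another name. Z00063755-1 and the non-member Z00063754-1 have the same 60 bases, yet their mean log2 Cy3 in the controls was 16.62 and 15.91 and their ratio in control adults -0.52 and -1.17. Over the arrays the normalized ratio of Z00063755-1 minus that of its copy ran from -0.05 to 0.79. The median absolute difference was 0.54, against 0.09 over the 51 identical pairs of the array. Whether a probe of this family was a member thus depended on differences that identical sequences also show.

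**Figure D5:**
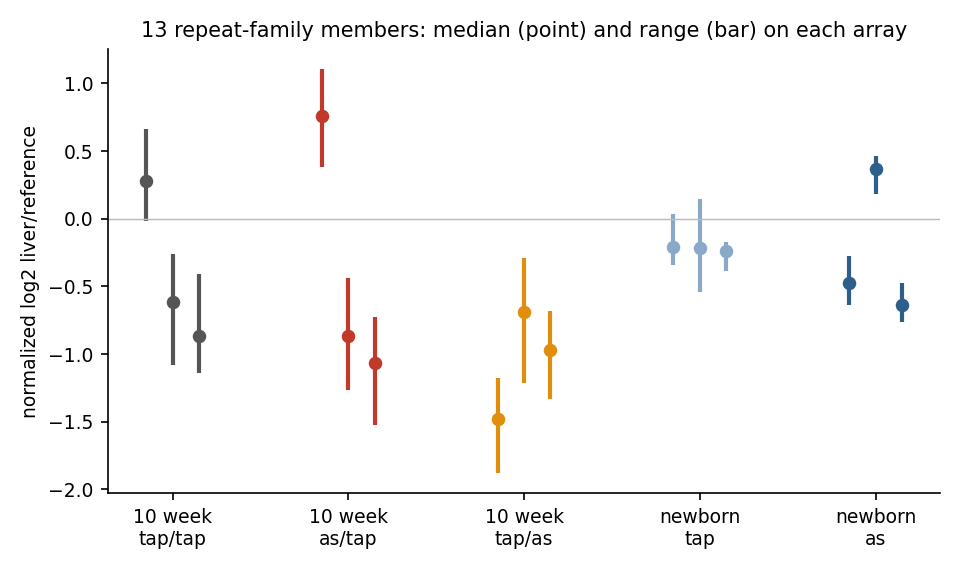
Normalized log2 liver over reference of the 13 repeat-family members on each of the 15 arrays, with the median as a point and the range as a bar. The 13 probes move together, and as/tap replicate 1 (median 0.76) and tap/as replicate 1 (median -1.48) are the extremes.

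Further features of the members' sequences were counted. The letters AATAAA, the signal that precedes the end of many messenger RNAs, were in 14% of the members and 6.75% of all probes, and also in 13% of the bright liver-enriched and 13.5% of the bright reference-enriched probes. The same letters on the other strand, TTTATT, were in 1.5% of members, 3.5% of the liver-enriched, 3% of the reference-enriched and 3.42% of all probes. A reading frame without a stop codon ran through 83.5% of the members and 83.2% of all probes. The members were spread over the array, with a median row of 104 (all probes 103) and a median column of 238.5 (all probes 216).

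Between the ages, the members' processed ratio in control mice was lower in adults for 156 and higher for 44, with a median change of -0.49, while the normalized ratio was lower for 105 and higher for 95, with a median of -0.03. These values belong to the arrays that chose the members and are given as a description. Within the limits of the rule 29 members still differed by 1 or more between the ages on the normalized scale. Z00047627-1 was the extreme, lower by 1.61 in adults.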

How the data were processed

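The authors hybridized liver RNA (Cy3) with reference RNA (Cy5) and deposited the scanner output of Agilent Feature Extraction A.7.5.1 for 15 arrays of 44290 spots. The deposited intensity values are mean, background, background-subtracted and processed signals on a linear scale. Per the file headers the processed signals carry the software's dye normalization, which scaled Cy3 by 3.29 to 4.78 among the dimmest and 5.36 to 7.98 among the brightest spots. The deposited log10 ratio of red over green was not used.

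Normexp background correction (offset 50), quantile normalization of each channel, log2 of Cy3 over Cy5 and loess within arrays (span 0.3) follow the order in the study's methods, which name mean-centring, quantile normalization and lowess smoothing and no background step. Outlier spots (8 to 172 probes per array) were dropped, values at saturation stayed in, and repeated spots were averaged to 42006 probes. limma 3.58.1 (R 4.3.3) fitted a mean per group on all 15 arrays, with 10 residual and 3.16 prior degrees of freedom. p-values were taken unadjusted at 0.01, the methods' threshold, and Benjamini-Hochberg adjusted over all probes at 0.05. On simulated data, the fit was tested for recovery of known changes. Members just inside and outside the limits, the 10 brightest and the 3 of smallest p in each direction per comparison were named. Z00030299-1, the pair Z00060844-1 and Z00060928-1, Z00010242-1 between the exposed groups and the repeat family were chosen after their values were seen. The members and lists were chosen with earlier results of these data known.

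No 2 arrays shared over 0.00238% identical Cy3 values, and each was used as 1 sample. The mice came from separate litters, and 3 arrays per group limit the precision. Same-numbered arrays of 10 week tap/tap and as/tap deviated together (correlations over probes 0.373, 0.157 and 0.158, over the members 0.824, 0.584 and 0.798). The member values include the repeat family, which held 44.5% of the members' within-group sum of squares, and were not taken without it. Those of tap/tap and tap/as (0.087, 0.504 and -0.265, over the members -0.477, 0.0385 and -0.323) did not deviate together. Nor did those of the newborn groups (-0.338, -0.0865 and -0.292, over the members -0.528, -0.00689 and -0.237), and the labels give the numbers no meaning. Alternatives were other background, normalization, channel, member, threshold and model choices, a replicate block, and each array left out. Gene lists and cell type markers were planned and not used here, because the files pair no probe with a gene.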

Additional observations from a re-analysis of the deposited data

Results flagged for a closer look

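For 5 of the named members the effect of prenatal arsenic differed between newborn and 10 week liver by limma's test of the difference itself at an unadjusted p of 0.01, and none passed the adjustment. Of all probes 3.17% passed that threshold. The 5 were named for a small p in a comparison on the same arrays, so that the test is no independent support. The difference was the adult effect minus the newborn effect on the log2 scale. It was 1.49 for Z00001979-1 (SE 0.376, p 0.00157, adjusted p 0.218), which was higher in exposed adults by 0.99 and lower in exposed newborns by a difference of -0.51. It was 0.43 for Z00047541-1 (SE 0.105, p 0.00114, adjusted p 0.202), with an effect of 0.10 in adults and -0.34 in newborns. It was 0.41 for Z00019690-1 (SE 0.123, p 0.00498, adjusted p 0.269), 0.38 for Z00018651-1 (SE 0.109, p 0.00367, adjusted p 0.261) and 0.30 for Z00058822-1 (SE 0.0904, p 0.00537, adjusted p 0.272), with newborn effects of -0.11, -0.04 and -0.06. The reference was saturated on all 15 arrays for these last 3. Age and the day of array read-out cannot be told apart.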

How the results depend on the processing

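Counts are members at an unadjusted p of 0.01 in limma unless stated, and medians are log2 differences. Counts over all 42006 probes moved too, so that a moved count is no result about the members by itself. They were 1489, 1907, 1386, 722 and 1332 in the order below. With array weights they were 6916, 6451, 1738, 1763 and 2956, and without the quantile step 1166, 1591, 1247, 717 and 978. With quantile normalization after loess they were 632, 1035, 1887, 507 and 1240. For prenatal arsenic in adults the count of 16 became 10 with ratios quantile normalized after loess, 1 in the reference channel alone, 8 with an unmoderated model of treatment and age, 39 with array weights, 7 among the 100 brightest, 48 among the 400 brightest, 25 with a ratio limit of 0.5, 10 of 122 members never saturated in the reference and 0 after adjustment. Its median of 0.05 became 0.13 with scanner-processed ratios, -0.0047 with loess but no quantile step, -0.00071 in the liver channel, 6.55e-05 in the reference channel 0.13 with members chosen on newborn controls and 0.085 with a ratio limit of 0.5. For postweaning arsenic the count of 14 became 6 without the quantile step, 8 with quantile normalization after loess, 6 in the reference channel, 9 with saturated spots missing, 23 with only the compared groups fitted, 29 with array weights, 42 with members chosen on newborn controls, 8 and 32 among the 100 and 400 brightest, 7 of those never saturated and 1 after adjustment. Its median of 0.07 became 0.016 without background subtraction, 0.13 with scanner-processed ratios, -0.042 in the liver channel, -8.88e-06 in the reference channel and 0.13 with members chosen on newborn controls. For newborns the count of 10 became 6 without the quantile step, 0 in the reference channel, 4 with only the compared groups or the unmoderated model, 16 with array weights, 2 and 26 among the 100 and 400 brightest and 0 after adjustment. The newborn median of -0.04 became -0.0046 without background subtraction, -0.022 with scanner-processed ratios, -0.026 with loess but no quantile step, -0.0042 in the liver channel and 3.19e-05 in the reference channel. Between the exposed adult groups the count of 7 became 13 without background subtraction, 12 in the liver channel, 4 with saturated spots missing, 18 with only those groups, 17 with array weights, 4 and 20 among the 100 and 400 brightest, 3 of those never saturated and 0 after adjustment. For the difference between ages the count of 10 became 4 without the quantile step, 5 with quantile normalization after loess, 4 in the liver channel, 2 in the reference channel, 4 with saturated spots missing, 6 with the unmoderated model, 22 with array weights, 6 and 28 among the 100 and 400 brightest, 4 of those never saturated and 0 after adjustment. Leaving out 1 array gave 4 to 22, 5 to 22, 5 to 38, 5 to 10 and 5 to 24 in the order above, and medians of 0.04 to 0.09, 0.05 to 0.10 and -0.06 to -0.02. With the replicate number as a block the counts were 14, 14, 9, 5 and 9, and the adjusted p of Z00003122-1 became 0.0557. Of the alternatives for the 18 named differences 388 kept direction and call, 68 lost the call, 13 gained it and none changed sign, the reference channel alone not counted, in which Z00003122-1 differed by -1.64e-05. Adjusted calls among the members were 34 and 24 with array weights (prenatal and postweaning adults, 17% and 12% of the members against 14.2% and 12.6% of all probes). For postweaning arsenic there were 6 in the liver channel and 2 in the reference channel, against 1237 and 1118 of the 42006 probes. There were 17 in newborns without newborn as replicate 1, with the count over all probes given above. Why a count moved was not tested. Saturation of the reference and 3 arrays per group limited these values.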
